A study of Mus musculus with 6 samples.

Results

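miR-21 was followed in lungs of mice with and without an inducible interleukin 13 transgene, in RNA of the left upper lobe. It was taken by name, as the mouse probe set mmu-miR-21_st for the mature strand, 1 of 609 mouse probe sets among 7625 in the deposited table. The 14 probe sets that carry the same name in other mammals served as support, and the passenger strand was left out. The arrays held 2 samples of CC10-rtTA-IL13 transgenic mice (TG) and 4 of wildtype mice (WT), with 1 array for each sample. All mice were C57BL/6, aged 6 to 10 weeks, and both genotypes received doxycycline at 2 mg/mL in the drinking water over 7 days. In TG the CC10 promoter, active in airway club cells, places a doxycycline-dependent transactivator in these cells, and the drug then turns on interleukin 13. No arm carried the transactivator without induced interleukin 13, and none went without the drug. The comparison asks whether miR-21 differs between lungs with the induced transgene and wildtype lungs. The arrays hold no probe for interleukin 13, so the genotype could not be checked. Among lung markers, endothelial miR-126-3p, epithelial miR-200c and smooth muscle miR-145 were detected on all 6 arrays.

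A miRNA is cut from a hairpin transcript and loaded into an Argonaute protein, where its seed, bases 2 to 8 from the 5′ end, pairs with sites in messenger RNAs and lowers their translation and stability. miR-21 is made in many cell types, and its gene can be switched on by STAT3 and AP-1, factors that act in inflammation and injury. Pdcd4 and Spry1 are known targets, and in mice Il12a, which encodes an interleukin 12 subunit, has been described as another. miR-21 has repeatedly been described as raised in allergic airway inflammation, and interleukin 13 is a central cytokine of that disease.

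The sequences below show what the name miR-21 stands for in the mouse, from RefSeq on GRCm38.p6. The gene Mir21a lies at chr11:86584067-86584158 on the minus strand, within the interval of the protein-coding gene Vmp1, whose annotated promoters are on the same strand. Its hairpin of 92 bases is shown first, with the mature 5′ arm in capitals. The mature sequences follow with the seed in capitals. They are given because another mouse miRNA in this table has the same seed.
Mir21a hairpin: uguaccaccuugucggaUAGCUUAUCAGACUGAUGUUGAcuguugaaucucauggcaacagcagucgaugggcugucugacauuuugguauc
mmu-miR-21a-5p: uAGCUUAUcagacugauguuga
mmu-miR-21c: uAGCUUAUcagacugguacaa
mmu-miR-21b: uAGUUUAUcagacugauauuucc

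The 22-base miR-21a-5p and the 21-base miR-21c, from chr8:128278188-128278208 on the minus strand, were identical over their first 15 bases. Of 1738 mature entries in the table, these 2 had the seed AGCUUAU, which pairs with the site AUAAGCU. miR-21b, from chr3:29636768-29636790 on the plus strand, bears the name but differs within the seed, with the substitution C4U counted from the 5′ end of miR-21a-5p. The deposited name does not tell the letters apart, and the probe sequences were not used here, so signal from miR-21b or miR-21c cannot be told apart from that of miR-21a. miR-590-5p is also known for this seed but was not among the entries found with it, so these 2 need not be the full seed family. It was named after its values were seen: its mouse probe set was detected on 0 of 6 arrays, at 3.78 to 4.02 on the log2 scale.

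miR-21 was higher on both TG arrays than on any WT array. For TG replicates 1 and 2 the mouse probe set read 5.19 and 5.61 on the log2 scale. It read 4.73, 4.24, 4.16 and 4.42 for WT replicates 1 to 4. The gap between the lower TG array and the highest WT array was 0.46. A probe set was called detected on an array when it exceeded the array's own background limit, the 95th percentile over plant probe sets. The limits were 4.22 and 4.25 on the TG arrays and between 4.27 and 4.33 on the WT arrays. miR-21 was thus well above background in TG and at or near it in WT. WT replicate 1 exceeded its limit by 0.43 and WT replicate 4 by 0.09, while WT replicates 2 and 3 fell below theirs.

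miR-21 averaged 5.40 ± 0.29 (SD, n = 2) in TG and 4.39 ± 0.25 (SD, n = 4) in WT. Its difference was 1.01 ± 0.26 (SE) on the log2 scale, with a 95% confidence interval from 0.41 to 1.62. This corresponds to 2.02-fold, or 1.97-fold with each value under its limit set to that limit. The limma fit across the 197 mouse probe sets detected on at least 2 arrays gave an adjusted p of 0.0812 (Benjamini-Hochberg), so miR-21 missed the threshold of 0.05. The exact two-sided permutation test of the probe set alone gave p = 0.0667, the smallest p that the 15 splits of these arrays allow. In whole lobe RNA, a change in the number of cells that contain miR-21 and a change in miR-21 per cell cannot be told apart.

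**Figure D1:**
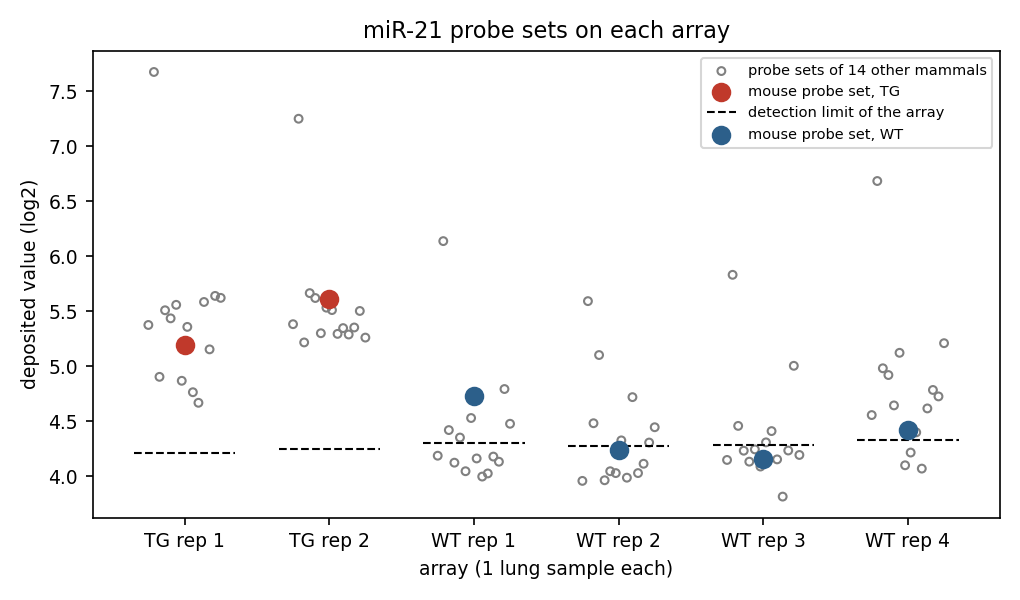
Deposited log2 values of the miR-21 probe sets on each array: filled circles are the mouse probe set (red TG, blue WT), open circles the 14 probe sets of other mammals, and dashes the detection limit of the array. The mouse probe set lies at 5.19 and 5.61 in TG and between 4.16 and 4.73 in WT, and the uppermost open circle on each array is the cattle probe set.

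Few probe sets passed the threshold. Of the 197 tested probe sets 6 passed with TG higher (3.05%) and 0 with TG lower. Among these 6, miR-127, miR-146b and miR-362-5p were detected on 1 WT array and miR-379 on 0. They met the detection filter only because the TG arrays detected them. miR-685 and miR-34a were detected on 3 and 4 WT arrays. With detection required on 4 or more arrays, 1 probe set passed. At an unadjusted p under 0.05 there were 34 higher (17.3%) and 5 lower (2.54%), and miR-21 ranked 12th of all by p. By size of the difference it ranked 20th, and 20 probe sets (10.2%) were higher by 1 log2 unit or more. Separation of the groups was common: both TG arrays lay above every WT array for 58 probe sets (29.4%). This share also includes probe sets that met the filter only through the TG arrays.

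**Figure D2:**
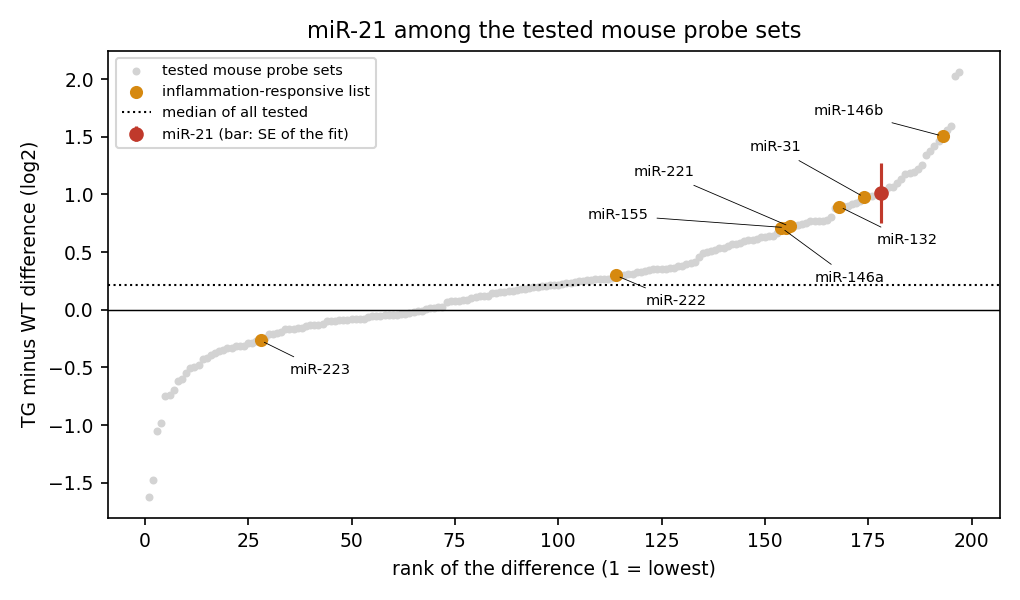
Each point is a tested mouse probe set, placed by the rank of its TG minus WT difference (x) and by that difference on the log2 scale (y); orange points are the inflammation-responsive miRNAs and the red point is miR-21 with its SE. miR-21 lies at 1.01, above the median of all tested probe sets (dotted line, 0.21).

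The same-name probe sets of the other 14 mammals gave a like size of difference. They were read on the same RNA and are no further replicates. Averaged on each array, they read 5.44 and 5.54 for the TG samples. WT replicates 1 to 4 averaged 4.40, 4.37, 4.38 and 4.79. TG averaged 5.49 ± 0.07 (SD, n = 2) and WT 4.48 ± 0.20 (SD, n = 4). No WT sample reached the TG samples, and the difference of 1.01, or 2.01-fold, had an exact two-sided permutation p of 0.0667, again the smallest possible. All 14 differences were above 0, with a median of 1.003, an SD between probe sets of 0.24 and a range from 0.47 to 1.40. Among all 1065 tested probe sets of other mammals, 635 (59.6%) were above 0. For 12 of the 14, both TG arrays exceeded every WT array, against 275 of the 1065 (25.8%). The exceptions were the dog and the bonobo probe sets, whose lower TG array fell short of the highest WT array by 0.08 and 0.05.

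miR-21 stood high among miRNAs measured this way. Of 29 miRNA names with a tested mouse probe set and 10 or more tested probe sets of other mammals, 10 (34.5%) had every difference above 0. For 7 of the 29 (24.1%) both TG means exceeded every WT mean. By the mean difference over these probe sets miR-21 ranked at place 3 of the 29, behind miR-127 at 2.15 over 11 probe sets and miR-34a at 1.28 over 14, and ahead of miR-31 at 0.86 over 11. These names share the same arrays. Of the 14 miR-21 probe sets, 6 were detected on 1 WT array and were tested only because both TG arrays detected them. With detection on 4 or more arrays 8 remained, fewer than the 10 that this ranking required.

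The cattle probe set read miR-21 furthest above background. On the log2 scale it read 7.68 and 7.25 in TG. WT replicates 1 to 4 read 6.14, 5.59, 5.83 and 6.68. It was detected on every array, with the lower TG array 0.57 above the highest WT array. Its difference of 1.40 ± 0.33 (SE) was the highest of the 14 and corresponds to 2.64-fold. In a fit over all 1666 tested animal probe sets limma gave it an adjusted p of 0.0836.

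Only 2 other probe sets of the 14 were detected on all 6 arrays, those of rat and dog. The rat probe set read 5.640 and 5.503 in TG against 4.307 to 5.005 in WT, a difference of 0.86 ± 0.25 (SE). The dog probe set read 4.90 and 5.22 in TG against 4.42 to 4.98 in WT. Its difference of 0.47 ± 0.25 (SE) was the lowest of the 14. These 3 probe sets, which exceeded the detection limit on every array, thus ran from 0.47 to 1.40. The lowest dog value in WT, 4.42, was still near the WT limits of 4.27 to 4.33.

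The other 11 were detected on both TG arrays but on fewer than 4 WT arrays: 1 on 3, 4 on 2, and 6 on 1. The last 6 met the detection filter only because both TG arrays detected them. No probe set of the 14 was undetected in all of WT. With values under the limit set to it, the folds of the 14 ran from 1.39 to 2.64. The rhesus macaque probe set had the lowest spread over the WT arrays, at 5.36 and 5.51 in TG and 4.16 to 4.33 in WT. Its difference was 1.18 ± 0.20 (SE), and it alone passed in the fit over all animal probe sets, with an adjusted p of 0.0394 by limma. Over the 1065 probe sets of other mammals 13 passed with TG higher in that fit (1.22%), and over all 1666 animal probe sets 14 did (0.84%). The mouse probe set had an adjusted p of 0.0953 there.

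Probe sets named miR-21 in a bird and 3 fishes were read beside these. The chicken probe set read 5.38 and 5.19 in TG, and 4.80, 4.32, 3.74 and 4.65 in WT, a difference of 0.91 ± 0.32 (SE). It thus separated the groups as most mammalian probe sets did. The zebrafish and fugu probe sets were detected on 0 arrays, with values of 3.76 to 4.20, and the Tetraodon probe set on 1. Their differences were -0.09, -0.19 and 0.20, and none was tested.

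**Figure D3:**
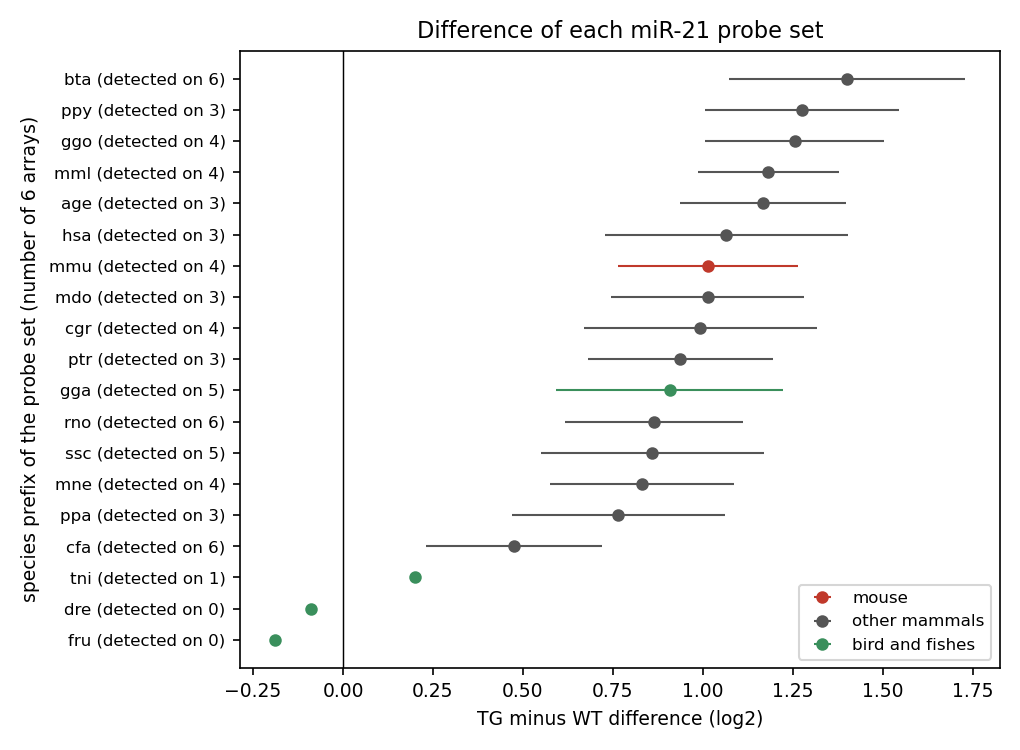
TG minus WT differences (x, log2) of all 19 miR-21 probe sets, by species prefix (y), with the number of arrays that detected each; bars are SEs from the fit over all animal probe sets, and the 3 untested probe sets have none. The mouse probe set (mmu) at 1.01 lies within the mammalian range of 0.47 (cfa, dog) to 1.40 (bta, cattle), and the 3 fish probe sets (tni, dre, fru) lie between -0.19 and 0.20.

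The order of arrays within a group was not the same across probe sets. The mouse probe set was highest in WT on replicate 1, but only 1 of the 14 others, that of opossum, had its highest WT value there. WT replicate 4 was the highest for 8 of them, WT replicate 2 for 3 and WT replicate 3 for 2. WT replicate 4 also detected 11 of the 14, against 5 to 7 on the other WT arrays and all 14 on both TG arrays. TG replicate 2 exceeded TG replicate 1 for 9 of the 14, as in the mouse probe set. Leaving out WT replicate 4 moved the difference from 1.01 to 1.02 in the mouse probe set and from 1.01 to 1.11 in the mean of the 14.

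The arrays differed in brightness, and the size of the miR-21 difference moved with how that was scaled. In TG 201 and 199 mouse probe sets were detected, in WT 132 to 172. The median of the 197 tested probe sets was 5.24 and 5.29 on the TG arrays. On WT replicates 1 to 4 it was 4.65, 5.21, 4.82 and 4.63. WT replicate 2 was thus nearly as bright as the TG arrays. Its miR-21 value of 4.24 lay below its detection limit and 1.16 below the TG mean, and its mean over the other mammals' probe sets lay 1.12 below theirs. WT replicates 1 and 4, the dimmest arrays, had the highest WT values of miR-21 in the mouse probe set. Both TG arrays were brighter than every WT array by this median. The part of brightness in the miR-21 difference was not tested.

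Over the tested probe sets the median difference was 0.21, and 130 of 197 (66%) were above 0. miR-21 exceeded that median by 0.80. Centring every array on its tested median moved the median of all differences to -0.23 and that of miR-21 to 0.58 ± 0.34 (SE), 1.49-fold, with an adjusted p of 0.388 by limma. The groups then overlapped, since TG replicate 1 fell 0.13 below WT replicate 1, and the exact permutation p was 0.2. They also overlapped after quantile normalization, with a difference of 0.74 ± 0.31 (SE), 1.67-fold, and an adjusted p of 0.292. Centring on the plant probe sets left the difference at 1.02. Which scaling is nearest to the truth was not tested.

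**Figure D4:**
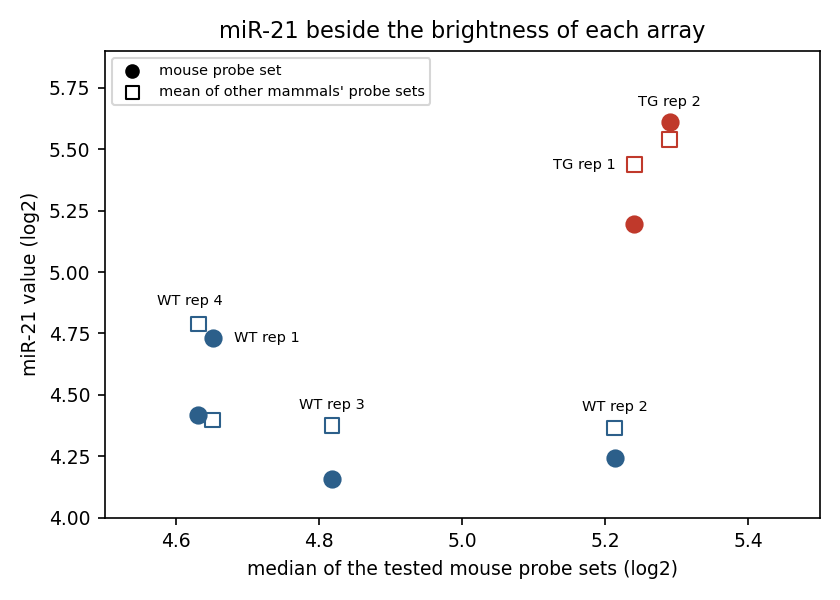
miR-21 value of each array (y, log2) against the median of its tested mouse probe sets (x, log2); circles are the mouse probe set, squares the mean of the 14 other mammals' probe sets, red TG and blue WT. WT replicate 2, at a median of 5.21, is nearly as bright as the TG arrays at 5.24 and 5.29. It reads miR-21 at 4.24, under its detection limit, and the TG arrays read 5.19 and 5.61.

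Over 21 other ways of processing, the miR-21 difference was above 0 in all 21 and ran from 0.58 to 1.22, and the adjusted p from 0.0146 to 0.554. It passed the threshold in 3. These were array weights, at an adjusted p of 0.0146, averaging with same-name mammalian probe sets, at 0.0326, and the comparison with WT replicates 2 and 3 alone, chosen after the data had been seen, at 0.0483. Leaving out TG replicate 1 gave 1.22 and leaving out TG replicate 2 gave 0.81, the lowest of the 6 fits that left out 1 array.

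**Figure D5:**
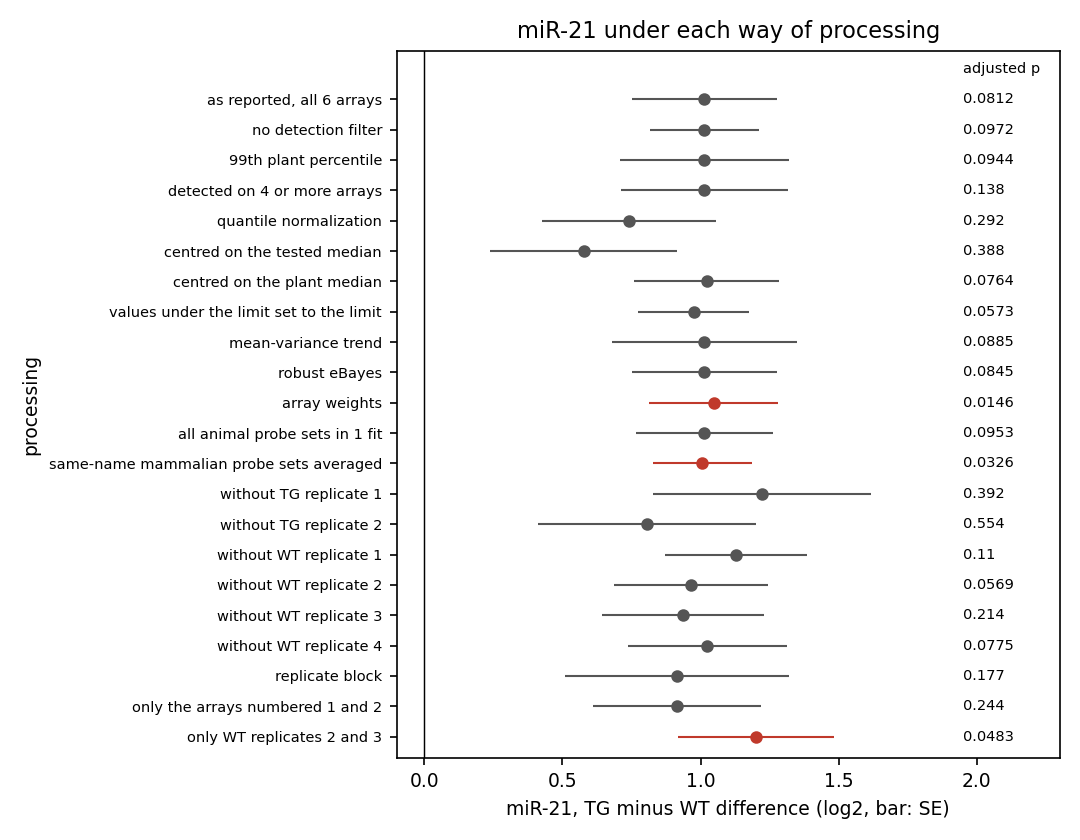
TG minus WT difference of the mouse miR-21 probe set (x, log2, bars are SEs) under each way of processing (y), with limma's adjusted p at the right; red marks those under 0.05. Every estimate lies above 0, and the lowest are 0.58 with centring on the tested median and 0.74 with quantile normalization.

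miRNAs known to be induced by inflammatory signals or to act in it were examined beside miR-21. Of 10 listed, 8 were tested, 7 had differences above 0, and both TG arrays exceeded all WT arrays for those 7, a separation seen in 29.4% of all tested probe sets. Their median difference was 0.72, beside 0.21 over all tested probe sets, and 0.28 with centring on the tested median. One passed the threshold, miR-146b, which targets adaptors of Toll-like receptor signalling, at 1.51 ± 0.29 (SE) with an adjusted p of 0.0428 by limma. The share over all tested probe sets was 3.05%. miR-146b was detected on both TG arrays but on 1 of 4 WT arrays. It was tested in 20 of the 21 alternatives and passed in 10, with adjusted p from 0.00402 to 0.457. The call was lost with quantile normalization, with centring on the tested median and when either TG array, WT replicate 1 or WT replicate 3 was left out. miR-146a, which has the same known targets, was at 0.71 ± 0.29. miR-155, needed for lymphocyte and macrophage activation, was at 0.71 ± 0.29.

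miR-31 was at 0.98 ± 0.43 (SE), close to miR-21, with wider spread in WT. miR-132, induced by CREB, was at 0.89 ± 0.36. The clustered pair miR-221 and miR-222, which target the cell cycle inhibitor p27, were at 0.72 ± 0.25 and 0.30 ± 0.28. miR-223, abundant in neutrophils and other myeloid cells, was the exception at -0.27 ± 0.25, with 0 of 2 TG arrays detected. None of these 7 passed, with adjusted p from 0.160 to 0.626 by limma. miR-147 and miR-212 were detected on too few arrays to be tested. Their differences were 0.12 and -0.004, and neither separated the groups. Without the detection filter 8 of the 10 listed were above 0, with a median of 0.71. miR-132, like miR-146b, was detected on 1 of 4 WT arrays. Both met the detection filter only because the TG arrays detected them.

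The probe sets most like miR-21 in their course over the arrays were found by the root mean square difference of the 6 values after each was centred on its own mean. Over 196 other tested probe sets this ran from 0.19 to 1.47, with a median of 0.60. The nearest 5 were miR-379 and miR-134, both of the imprinted Dlk1-Dio3 cluster, at 0.19 and 0.20, miR-1198 at 0.22, miR-362-5p at 0.23 and miR-877 at 0.28. miR-379 read 4.98 and 5.53 in TG and 3.87 to 4.14 in WT, a difference of 1.19 ± 0.25 (SE). miR-362-5p read 5.23 and 5.29 against 4.06 to 4.30, a difference of 1.07 ± 0.21. The other 3, miR-134, miR-1198 and miR-877, were at 0.80 ± 0.23, 0.77 ± 0.23 and 0.49 ± 0.24. Because they were chosen for their likeness to miR-21, these differences are a description and carry no test. miR-379 and miR-134 were detected on 0 WT arrays, and miR-1198 and miR-362-5p on 1, so these 4 met the detection filter only because the TG arrays detected them.

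Markers of lung and blood cells were read to show what moved beside miR-21. Of the 6 leukocyte markers 4 were tested and 0 passed. Over all tested probe sets 3.05% passed with TG higher, so 0 among so few members says little. Differences were above 0 for 3 of the 4, against 66% of all tested probe sets. Their median was 0.41, beside 0.21 over all. Their summed linear signal was 399.8 to 473 in TG and 244 to 340.2 in WT. Of the TG sum 55.1% to 62.6% came from miR-342-3p, a lymphocyte miRNA at 1.14 ± 0.29 (SE). Without it the sums were 177 to 179 in TG and 146 to 181 in WT, and overlapped. Of the defining leukocyte markers, miR-142-3p was detected on 0 arrays, and miR-223 on 0 TG and 2 WT arrays. Of the 11 epithelial markers 10 were tested and 0 passed, against 3.05% of all tested probe sets. Their median was 0.22, beside 0.21 over all. Their summed signal was 1275 to 1383 in TG and 870.3 to 1106 in WT. miR-200c, at 0.54 ± 0.24 (SE), made up 75.8% to 77.3% of the TG sum, and without it the sums were 309 to 313 and 262 to 288. Of the 10 tested 7 were above 0, against 66% of all tested probe sets. Among them were miR-205 at 0.63, detected on 0 WT arrays, miR-182 at 0.57 and miR-375, a defining marker, at 0.25. The 3 below 0, miR-200a, miR-200b and miR-203, were at -0.09, -0.03 and -0.31. Both TG arrays exceeded every WT array for 3 of the 10 tested epithelial markers and 1 of the 4 leukocyte markers. Over all tested probe sets this share was 29.4%, and no such share was computed for sums. The single endothelial marker, miR-126-3p, was at -1.05 ± 0.44 (SE), with 632 to 647 in TG against 712 to 2333 in WT. It did not pass, with an adjusted p of 0.232 by limma. The share of 29.4% counts separation with TG higher only and does not apply to it. At an unadjusted limma p under 0.05, 2.54% of all tested probe sets were lower in TG.

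The sums of the other lists overlapped between the groups. Summed signals were 165 to 202 in TG and 112 to 201 in WT for ciliated cells, 1347 to 1354 and 807 to 1572 for smooth muscle, and 329 to 368 and 319 to 479 for mesenchymal cells. They were 237 to 302 and 111 to 362 for erythroid cells, 111 to 115 and 115 to 123 for striated muscle, and 80.0 to 80.8 and 74.9 to 82.0 for markers of other organs such as liver. None of the tested members of these lists passed, against 3.05% of all tested probe sets. miR-1, which defines striated muscle, was detected on 1 array. miR-449a, which defines ciliated cells, was at 0.77 ± 0.29 (SE) and was detected on 0 WT arrays, while miR-34c was at 0.17. miR-449a met the detection filter only because both TG arrays detected it. TG replicate 1 read it at 5.24, and TG replicate 2 at 4.33, near its limit of 4.25. With values under the limit set to it, its fold was 1.40 rather than 1.70. Mesenchymal miR-199a-5p was at 1.20 ± 0.31 (SE), with an adjusted p of 0.0812 by limma. miR-199a-3p, miR-199b and miR-214 were at -0.41, -0.62 and 0.09. For miR-449a and miR-199a-5p both TG arrays exceeded every WT array, as in 29.4% of all tested probe sets. The part of these cell types in the miR-21 difference was not tested.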

How the data were processed

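The values, 1 for each probe set on each array, are as the authors deposited them, and were taken as log2 because values run from a dense floor near 4 to array maxima of 11.4 to 13.4. The base is inferred from the values, and every fold rests on it. Per the labels' protocols, TRIzol total RNA was biotin-labelled by the Affymetrix procedure. How the signals were corrected, summarized and scaled is not given in the sources used here. Array medians were 4.02 to 4.03. No batch is given, and 0 columns were left unused. The number of arrays limits the precision.

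Probe sets were classed by species prefix (609 mouse, 2737 other mammals, 1525 other animals, 1631 plant, 201 viral, 922 small nucleolar). TG was compared with WT by limma 3.58.1 in R 4.3.3 (lmFit, eBayes), two-sided, without covariates, with Benjamini-Hochberg adjustment over the probe sets tested, and was tested on simulated data. Replicates are biological per the labels. The miRNA, the lists, the tests and the rule for named miRNAs (same seed, the 5 most alike, every listed member) were chosen with earlier results of these data known. RefSeq sequences of GRCm38.p6 were matched by name for miR-21. Alternatives covered detection, scaling, variance model, probe set averaging, left-out arrays and the replicate number as a block.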

Additional observations from a re-analysis of the deposited data

Results flagged for a closer look

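In 5 of 36 examined sets of 4 WT arrays, 1 array lay far from the other 3 by Dixon's criterion; chance gives this in about 1 of 20 sets, and the sets share their arrays. WT replicate 4 stood high in the mean of the other mammals' miR-21 probe sets, at 4.79 against 4.37 to 4.40, and in the dog probe set at 4.98 against 4.42 to 4.48. WT replicate 1 stood high in the opossum miR-21 probe set, at 4.53 against 4.03 to 4.10. WT replicate 2 stood low for miR-379, at 3.87 against 4.12 to 4.14, all under the detection limits. WT replicate 1 stood low for miR-222, at 6.63 against 7.28 to 7.37.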

How the results depend on the processing

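The miR-21 difference and the mean of the other mammals' miR-21 probe sets stayed above 0 under all 21 alternatives. miR-21 passed the threshold with array weights (1.05, adjusted p 0.0146), same-name probe sets averaged (1.01, 0.0326) and only WT replicates 2 and 3 (1.20, 0.0483), and missed it in the other 18, with adjusted p up to 0.554; the cause was not tested. Leaving out 1 array gave 0.81 to 1.22, and 0.96 to 1.11 for the mean of the other mammals' probe sets, which was lowest, at 0.57, with centring on the tested median. The median of the inflammation-responsive miRNAs was 0.66 to 0.87 without 1 array and 0.28 with that centring, which lowers every difference by construction. The count of 6 passing mouse probe sets became 1 without the detection filter, 2 with the 99th plant percentile, 1 with detection on 4 or more arrays, 0 with quantile normalization, 2 with centring on the tested median, 33 with array weights and 1 in the fit over all animal probe sets. It was 0 to 27 without 1 array: 27 when WT replicate 2 was left out, 4 when WT replicate 4 was, and 0 for each of the other 4 arrays. With the replicate number as a block, on the arrays numbered 1 and 2, miR-21 was at 0.91 (adjusted p 0.177), the count was 12, the mean of the other mammals' probe sets 1.11 and the list median 0.68; without that term on the same arrays the count was 0 and the adjusted p 0.244. Same-numbered arrays deviated together at r = -0.21 and 0.07 across 197 probe sets, and the numbers are not stated to pair animals. In WT the signal of most miR-21 probe sets lay near background, which limits how large a fold can be read.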
